A study of Homo sapiens with 15 samples.

Results

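The 9 genes described here encode proteins of the intermediate filament family: vimentin (VIM), the keratins KRT7, KRT8, KRT18 and KRT19, nestin (NES), and the nuclear lamins LMNA, LMNB1 and LMNB2. They were listed by name with no threshold on a measured value, although earlier results of these data were known when the list was drawn up, and all 9 were found among the 23346 gene symbols of the count table. Intermediate filaments are rope-like polymers that give cells mechanical strength, and which of them a cell makes depends strongly on its type. Keratins build filaments only as mixed pairs of an acidic type I chain (KRT18, KRT19) and a basic type II chain (KRT7, KRT8), and are typical of epithelia. Vimentin, a type III protein, is typical of mesenchymal and migrating cells, nestin is a large type IV protein of progenitor cells that assembles together with vimentin, and lamins form the meshwork under the inner nuclear membrane.

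The cells were H9, an established human embryonic stem cell line, sampled daily while they were driven towards definitive endoderm, the germ layer of gut, liver and pancreas. Day 0 libraries came from undifferentiated cells in E8 medium. Cells of day 1 had received activin A, a TGF-beta family ligand, with CHIR99021, an inhibitor of the kinase GSK3, in Advanced RPMI 1640 medium, and cells of days 2, 3 and 4 had then received activin A without CHIR99021. Each of the 5 days had 3 polyA-selected bulk RNA-seq libraries, numbered 1, 2 and 4. All libraries came from this 1 cell line, so nothing here separates a property of the line from one of human embryonic stem cells. The medium of day 0 was not that of the later days, and activin A and CHIR99021 were given only after it. In every comparison with day 0 the effects of day, medium and these additions therefore cannot be told apart. CHIR99021 was present on day 1 and not later, so in comparisons of day 1 with a later day its withdrawal and day cannot be told apart. Among days 2, 3 and 4, day and the time since its withdrawal cannot be told apart. The labels do not state whether a day's 3 libraries were separate cultures. A p-value here therefore reflects only how far these samples spread, and that spread may be technical.

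Total counts ran from 54723184 to 145857940 per library. Levels are given as CPM, counts brought to a common library size and scaled for library composition, and 3 counts corresponded to 0.0206 to 0.0548 CPM of the library totals. Summed over 6 markers of undifferentiated cells, levels were 1727 to 2117 CPM on day 0 and 171 to 320 on day 4. Summed over 7 definitive endoderm markers, they were 28.2 to 35.4 CPM on day 0 and 4489 to 6327 on day 2. CER1 made up most of the day 2 sums (4537 ± 985 CPM). The means of CER1, HHEX and GATA6 were highest on day 2, and those of SOX17, FOXA2, CXCR4 and GATA4 on day 4. By this sum, replicate 1 of days 3 and 4 stood apart: 1257 and 1086 CPM against at least 3315 in those days' other libraries. CER1 weighed heavily there too, at 2274 ± 2031 CPM on day 3 and 1679 ± 1168 on day 4. The calls of the 9 genes on day 4 were also computed without these 2 libraries.

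The end of the coding sequence is shown here for lamins A, B1 and B2 because it carries the site at which these 3 lamins are lipid-modified. Each line gives the last 45 coding bases, 5′ to 3′ on the strand of the gene, read from the human genome build GRCh38 with GENCODE v29 transcripts. Capitals mark the final cysteine codon, the 2 codons after it, the last amino acid codon and the stop codon: this is the coding end on which all of them are farnesylated and then carboxyl-methylated.
lamin A: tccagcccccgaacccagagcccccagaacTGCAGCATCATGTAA
lamin B1: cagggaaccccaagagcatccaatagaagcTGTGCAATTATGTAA
lamin B2: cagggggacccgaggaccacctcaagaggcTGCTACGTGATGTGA
The final 15 bases lie at chr1:156139092-156139106 in exon 12 of LMNA for lamin A, at chr5:126836250-126836264 in exon 11 of LMNB1, and at chr19:2430911-2430925 on the minus strand in exon 12 of LMNB2. Lamin A (664 codons) and lamin C (572 codons) are products of the same gene by alternative splicing. The count table has a single LMNA row, in which transcripts for lamins A and C cannot be told apart. Lamin B1 has 586 codons and lamin B2 has 620.

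Over the course, 5 of the 9 genes passed a joint test for any difference among the 5 days (edgeR's quasi-likelihood test with Benjamini-Hochberg adjustment over 17401 tested genes, adjusted p under 0.05): VIM, KRT19, KRT8, KRT7 and KRT18. Of all tested genes, 37.3% were called by that test. The adjusted p was 6.21e-06 for VIM, 1.05e-04 for KRT19, 0.00103 for KRT8, 0.00167 for KRT7 and 0.0486 for KRT18. NES (0.0937), LMNB2 (0.110), LMNB1 (0.285) and LMNA (0.794) did not pass. The KRT18 call was close to the threshold and was lost under 12 of 23 alternatives, among them the fit without replicate 1 of days 3 and 4 (adjusted p = 0.151). In bulk libraries, fewer cells making a transcript and less of it per cell cannot be told apart, which holds for every level below.

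**Figure D1:**
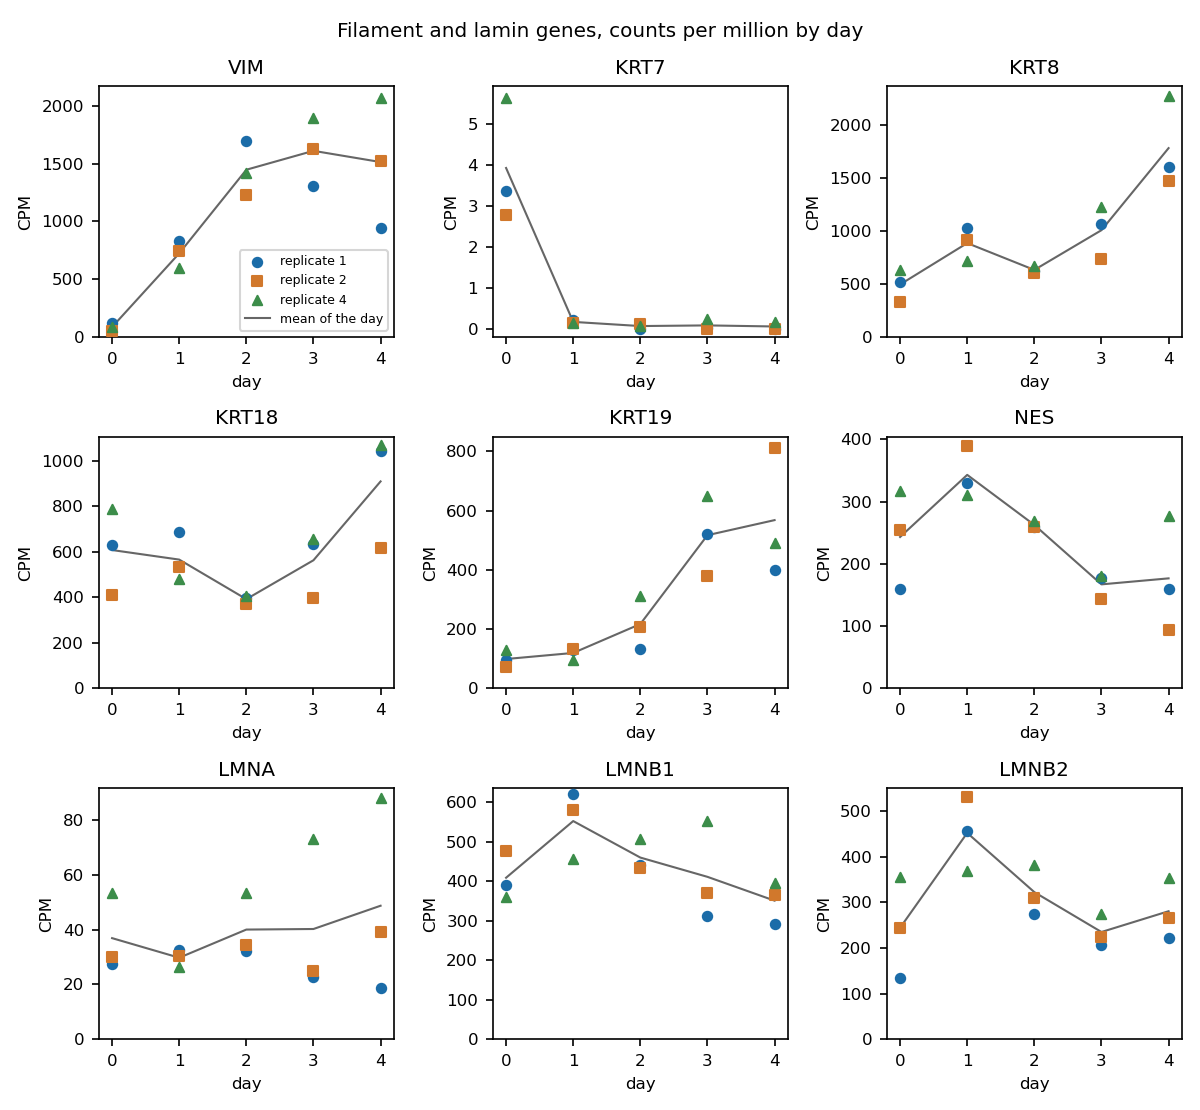
Level of each of the 9 genes in CPM (vertical axes, linear, from or near 0, own range in each panel) against day (horizontal axes); each point is a library, its shape and colour give the replicate number, and the line joins the means of the days. VIM lay between 55.6 and 120 CPM on day 0 and between 1304 and 1898 on day 3, and KRT7 lay between 2.78 and 5.65 CPM on day 0 and at or below 0.243 later.

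Vimentin showed the largest increase of the 9 genes between day 0 and day 4. VIM stood at 120, 55.6 and 85.8 CPM in replicates 1, 2 and 4 of day 0, at 832, 740 and 600 on day 1, and at 1700, 1227 and 1415 on day 2. It stood at 1304, 1631 and 1898 CPM on day 3 and at 945, 1526 and 2071 on day 4. All day 1 libraries lay above all day 0 libraries, and all day 2 libraries above all day 1 libraries, whereas days 2, 3 and 4 overlapped. VIM rose 8.31-fold from day 0 to day 1, from 87.1 ± 32.2 to 724 ± 117 CPM (mean ± SD, n = 3; log2 fold change 3.06, standard error (SE) 0.35, edgeR adjusted p = 3.81e-05).

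From day 1 to day 2 the mean of VIM went from 724 ± 117 to 1447 ± 238 CPM, which edgeR's test over all libraries did not call (log2 fold change 1.00, SE 0.33, edgeR adjusted p = 0.0748). The fit without replicate 1 of days 3 and 4 did call it (adjusted p = 0.0407), as did a fit of the 2 days alone (0.0179) and DESeq2 (0.0406). Against day 0, VIM was 17.4-fold higher on day 4 (log2 fold change 4.12, SE 0.37, edgeR adjusted p = 1.60e-06), and the log2 fold change was 4.42 without replicate 1 of days 3 and 4. Replicate 1, which stood apart in its endoderm sum, had the lowest VIM level of day 3 and of day 4. VIM is also a usual marker of fibroblasts and neural progenitors. The 8 fibroblast markers summed to 222 to 517 CPM on day 0 and 223 to 403 on day 4. However, all 8 changed by the joint test, which called 37.3% of all genes. From day 0 to day 4 their calls went both ways, with 3 higher (LUM, COL3A1, DCN) and 2 lower (THY1, POSTN). Over all genes, 18.0% were higher and 16.2% lower in that comparison. LUM, the matrix protein lumican, rose from 0.40 ± 0.272 to 69.5 ± 20.3 CPM (edgeR adjusted p = 4.75e-04). COL3A1 went from 0.135 ± 0.0844 to 1.17 ± 0.843 CPM (edgeR adjusted p = 0.00539), and DCN from 0 in all day 0 libraries to 0.455 ± 0.0940 CPM (edgeR adjusted p = 0.00585). THY1, with the highest day 0 mean of the 8, fell from 204 ± 133 to 30.9 ± 23.7 CPM (edgeR adjusted p = 0.00416). On day 4 COL1A1 had the highest mean (157 ± 48.2 CPM), so the sums of days 0 and 4 differ in make-up. The call of POSTN was lost under 9 of 15 alternatives. The 7 neural markers summed to 13.3 to 23.9 CPM on day 0, 9.02 to 9.92 on day 2 and 6.99 to 137 on day 4. Of the 5 tested, 2 were higher on day 4 than on day 0 and 1 lower, against 18.0% and 16.2% of all genes. PAX6 went from 1.61 ± 1.25 to 26.8 ± 30.1 CPM (edgeR adjusted p = 0.0128) and LHX2 from 0.737 ± 0.416 to 32.9 ± 37.0 (0.00180). DCX fell from 16.7 ± 5.50 to 1.32 ± 0.350 CPM (edgeR adjusted p = 1.63e-05). What fibroblasts or neural progenitors add to VIM was not tested.

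Nestin, the usual partner of vimentin in progenitor cells, had its highest mean on day 1, though its day 0 and day 1 libraries overlapped. NES stood at 159, 254 and 316 CPM on day 0, at 329, 389 and 310 on day 1, and at 259, 259 and 269 on day 2. It stood at 177, 143 and 180 CPM on day 3 and at 159, 93.4 and 277 on day 4. The lowest mean was that of day 3, and on day 4 the libraries were spread too widely to be set apart from those of day 0. No comparison of days called NES by edgeR: the log2 fold change was 0.50 (SE 0.34, edgeR adjusted p = 0.405) for day 1 against day 0 and -0.96 (SE 0.34, edgeR adjusted p = 0.0597) for day 4 against day 1. Day 4 replicate 4 was the highest NES library of its day, and without it the second of these log2 fold changes was -1.44 (adjusted p = 0.0104).

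KRT8 and KRT18 are the first keratins of the embryo and the main keratin pair of simple epithelia. KRT8, the type II chain, stood at 523, 330 and 636 CPM on day 0, at 1028, 916 and 716 on day 1, and at 625, 603 and 674 on day 2. It then stood at 1063, 734 and 1229 CPM on day 3 and at 1604, 1473 and 2272 on day 4. All day 4 libraries lay above every library of the earlier days. The levels had a low on day 2, when the libraries overlapped with those of day 0. KRT8 rose 3.59-fold from day 0 to day 4, from 496 ± 155 to 1783 ± 429 CPM (n = 3; log2 fold change 1.85, SE 0.30, edgeR adjusted p = 3.12e-04). It was also higher on day 4 than on day 1 (log2 fold change 1.01, SE 0.29, edgeR adjusted p = 0.0238). That second call was lost without day 1 replicate 2 (adjusted p = 0.0683), day 1 replicate 4 (0.0955) or day 4 replicate 4 (0.105).

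KRT18, the type I partner, stood at 627, 407 and 785 CPM on day 0, at 685, 530 and 479 on day 1, and at 397, 369 and 406 on day 2. It stood at 634, 398 and 653 CPM on day 3 and at 1040, 616 and 1068 on day 4. Day 2 held the lowest levels and day 4 the highest mean, 908 ± 253 CPM, but day 4 replicate 2 lay below the highest day 0 library. The mean of KRT18 on day 0 was 607 ± 190 CPM, and no comparison of days called it by edgeR (day 4 against day 0: log2 fold change 0.58, SE 0.31, edgeR adjusted p = 0.151).

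The balance of the 2 partners can be read as a ratio within each library, which needs no scaling between libraries. The ratio of KRT8 counts to KRT18 counts was 0.834, 0.810 and 0.810 on day 0, 1.50, 1.73 and 1.50 on day 1, and 1.57, 1.63 and 1.66 on day 2. It was 1.68, 1.85 and 1.88 on day 3 and 1.54, 2.39 and 2.13 on day 4. The day 0 libraries hardly differed from each other, and every later library lay above all of them. The mean log2 ratio was 1.28 higher on day 4 (0.99 ± 0.33) than on day 0 (-0.29 ± 0.024), with an exact two-sided permutation p of 0.1, the smallest that 3 libraries against 3 can give. Leaving out each of these libraries in turn gave differences from 1.15 to 1.46.

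**Figure D2:**
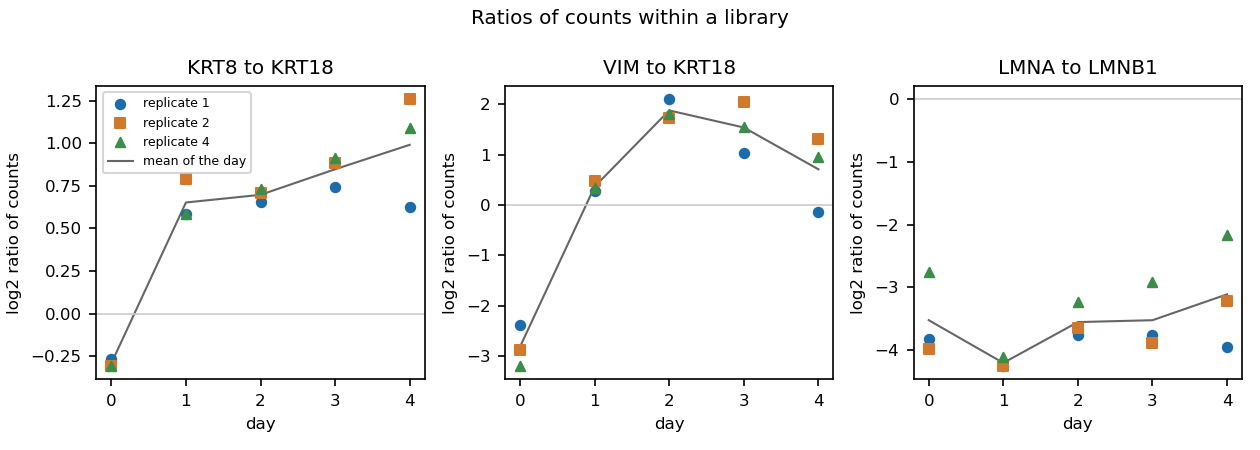
Log2 ratio of the counts of 2 genes within a library (vertical axes) against day (horizontal axes) for KRT8 to KRT18, VIM to KRT18 and LMNA to LMNB1; each point is a library, the line joins the means of the days and the grey line marks equal counts. The KRT8 to KRT18 ratio was below equal counts in all 3 day 0 libraries and above in all later ones, and LMNA stayed below LMNB1 in every library.

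A technical limit applies to both of these genes. In GENCODE v29, KRT8 and KRT18 lie next to each other on chromosome 12 on opposite strands, and their annotated transcripts overlap. The sources used here do not say whether strand was used in counting, so reads of the shared stretch may have been split, dropped or added between them. Both genes have many processed pseudogenes, 50 annotated for KRT8 and 67 for KRT18, and reads could have been placed there. Of these, KRT8P41 and KRT18P55 were in the table, with at most 0.0637% and 0.0340% of the count of their parent gene in any library.

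KRT19, a type I keratin of ducts and gut epithelium that has an unusually short tail, reached its higher levels on days 3 and 4. KRT19 stood at 93.5, 71.2 and 130 CPM on day 0, at 130, 131 and 94.6 on day 1, and at 133, 207 and 310 on day 2. It stood at 522, 380 and 648 CPM on day 3 and at 400, 812 and 491 on day 4. Days 0 and 1 overlapped, all day 2 libraries lay above all of day 1, all day 3 libraries lay above all of day 2, and days 3 and 4 overlapped. KRT19 rose 5.78-fold from day 0 (98.2 ± 29.6 CPM) to day 4 (568 ± 216 CPM, n = 3; log2 fold change 2.53, SE 0.38, edgeR adjusted p = 1.62e-04). It was 4.78-fold higher on day 4 than on day 1 (log2 fold change 2.26, SE 0.38, edgeR adjusted p = 6.91e-04). No step between neighbouring days was called by edgeR: the log2 fold change was 0.87 from day 1 to day 2 (SE 0.36, edgeR adjusted p = 0.165) and 1.26 from day 2 to day 3 (SE 0.36, edgeR adjusted p = 0.112). DESeq2 called the second of these steps (adjusted p = 0.0251).

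KRT7, a type II keratin of ducts and of trophoblast and amnion, went the other way at a level far below the rest. KRT7 stood at 3.36, 2.78 and 5.65 CPM on day 0, from 284, 280 and 594 counts. It stood at 0.222, 0.147 and 0.145 CPM on day 1, at 0, 0.126 and 0.0822 on day 2, at 0.0136, 0 and 0.243 on day 3, and at 0, 0 and 0.177 on day 4. After day 0 no library held more than 20 counts, and 4 of the 12 later libraries held none. KRT7 fell by 4.51 log2 units from day 0 to day 1 (SE 1.38, edgeR adjusted p = 0.0479). That call was just inside the threshold and was lost without any 1 of the 6 libraries (adjusted p from 0.0809 to 0.168), by DESeq2 (0.0589) and with library totals as the only scaling (0.0545). The libraries of the days did not overlap. From day 0 to day 4 it fell by 6.27 log2 units (SE 1.55, edgeR adjusted p = 0.00605). With 2 of the 3 day 4 libraries at 0, the size of that fitted change rests on the 10 counts of replicate 4. Over the 15 alternatives the change ranged from -11.5 to -5.52, and the call held under all of them. The change was -5.53 without replicate 1 of days 3 and 4. The 10 trophoblast and amnion markers did not move as one. They summed to 7.55 to 11.3 CPM on day 0 and 70.1 to 117 on day 1, and most of the day 1 sum was CDX2 (75.6 ± 22.7 CPM), with CGA and CGB at 0 in all day 1 libraries. Of the 8 tested, 3 were higher on day 1 than on day 0 (CDX2, GATA3 and ISL1) and 0 lower. Over all genes, 5.49% were higher and 4.88% lower in that step. The calls of GATA3 and ISL1 were lost without any 1 of the 6 libraries. For GABRP the means of days 0 and 1 were 2.69 ± 0.573 and 1.35 ± 0.492 CPM (not called, edgeR adjusted p = 0.207) and was lower on day 4 than on day 0 (0.473 ± 0.134 CPM, edgeR adjusted p = 0.00127). VTCN1, at 0.277 ± 0.153 CPM on day 0, was also lower on day 4 (edgeR adjusted p = 0.0467), a call lost under 9 of 13 alternatives. The part of such cells in the KRT7 level was not tested.

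**Figure D3:**
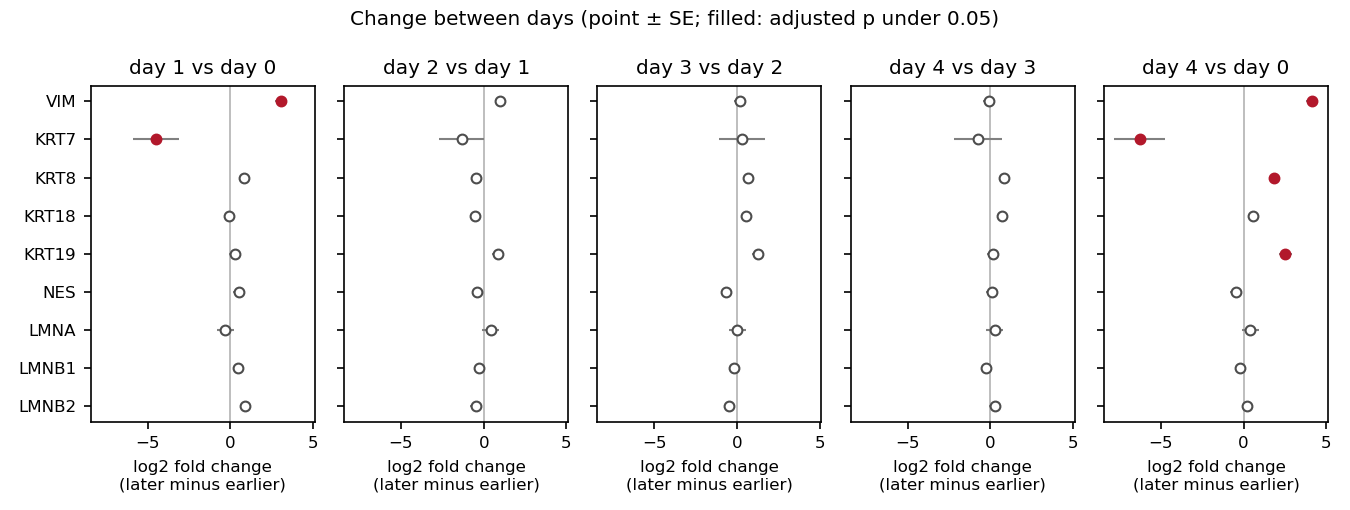
Log2 fold change of each gene, later day minus earlier day (horizontal axes), in the 4 steps between neighbouring days and in day 4 against day 0; points are edgeR estimates, bars are ± 1 SE, and filled points passed an adjusted p of 0.05. VIM and KRT7 were called for day 1 against day 0, no gene in the next 3 steps, and VIM, KRT8, KRT19 and KRT7 for day 4 against day 0.

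Counted by comparison, 1 of the 9 genes was higher (VIM) and 1 lower (KRT7) on day 1 than on day 0, while 5.49% of all tested genes were higher and 4.88% lower. All libraries of day 1 lay above those of day 0 for 3 of the genes (VIM, KRT8 and LMNB2) and below for KRT7, and over all tested genes the shares were 15.8% and 14.1%. On day 4 against day 0, 3 of the 9 were higher (VIM, KRT8, KRT19) and 1 lower (KRT7), against 18.0% higher and 16.2% lower over all genes. The same 4 genes had libraries without overlap between day 0 and day 4, a pattern shown in the higher direction by 21.1% and in the lower by 19.5% of all genes. The median log2 fold change of the 9 genes from day 0 to day 4 was 0.40 and that of all tested genes -0.024. Both comparisons use the same day 0 libraries. Without replicate 1 of days 3 and 4, edgeR called the same 4 genes for day 4 against day 0: the log2 fold change was 1.97 for KRT8 (adjusted p = 7.06e-04) and 2.78 for KRT19 (1.48e-04). It was 0.53 for KRT18 (adjusted p = 0.256), -0.33 for NES (0.561) and -0.051 for LMNB1 (0.907), none of them called.

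Days 1 and 4 were both in Advanced RPMI 1640 medium, but day 1 cells had CHIR99021 and day 4 cells did not. Day and the withdrawal of CHIR99021 cannot be told apart in this comparison. On day 4 against day 1, 3 of the 9 genes were higher (VIM, KRT8 and KRT19) and 0 lower by edgeR. Of all tested genes, 11.8% were higher and 8.93% lower. At an unadjusted p under 0.05 the count was 7 of the 9 (33.4% of all genes), and DESeq2 called the same 3 (27.3% of the genes it tested). VIM was 2.09-fold higher on day 4 than on day 1 (log2 fold change 1.06, SE 0.33, edgeR adjusted p = 0.0312). That call was lost without 5 of the 6 libraries in turn, with adjusted p up to 0.143, and the log2 fold change was 1.39 without replicate 1 of days 3 and 4. Without day 4 replicate 4, or without day 1 replicate 2 or 4, KRT19 was the remaining gene called higher.

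In the steps between neighbouring days after day 1, edgeR called 0 of the 9 genes in either direction. For day 2 against day 1, 4.93% of all tested genes were higher and 3.34% lower. At an unadjusted p under 0.05, VIM and KRT19 passed (22.3% of all genes), and DESeq2 called VIM (14.2%). All day 2 libraries lay above those of day 1 for VIM and KRT19 (17.2% of all genes in that direction) and below for KRT7, KRT8, KRT18 and NES (18.5%). For day 3 against day 2, 0.661% of all genes were higher and 0.287% lower (115 and 50 genes, and 371 and 219 with the replicate number as a block, which also called 0 of the 9). KRT8 and KRT19 passed an unadjusted p under 0.05 in that step (14.2% of all genes), and DESeq2 called KRT19 (5.74%). For day 4 against day 3, edgeR called 0% of all genes higher and 0% lower. KRT8 and KRT18 passed the unadjusted threshold there (6.17% of all genes), and DESeq2 called 0 of the 9 (0.395% of the genes it tested).

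To set the genes beside each other, CPM were divided by the length of a principal GENCODE v29 transcript. On this scale the order on day 0 was KRT18 (388 ± 121 CPM per kb), KRT8 (233 ± 72.8), LMNB1 (142 ± 20.7), KRT19 (70.7 ± 21.3), LMNB2 (52.3 ± 23.6), NES (43.7 ± 14.3), VIM (40.8 ± 15.1), LMNA (11.6 ± 4.48) and KRT7 (2.24 ± 0.865). The steps from KRT19 to LMNB2, from LMNB2 to NES and from NES to VIM were each smaller than the SD of either gene. On day 4 the order was KRT8 (839 ± 202 CPM per kb), VIM (709 ± 264), KRT18 (581 ± 162), KRT19 (408 ± 155), LMNB1 (122 ± 18.5), LMNB2 (60.1 ± 14.5), NES (31.7 ± 16.7), LMNA (15.3 ± 11.2) and KRT7 (0.0336 ± 0.0581). The first 3 of that order were again separated by less than their spread. VIM thus stood in the seventh place on day 0 and in the second on day 4.

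Of the summed CPM per kb of the 6 cytoplasmic filament genes, VIM made up 5.29 ± 1.54% on day 0, 26.8 ± 0.227% on day 1, 47.3 ± 5.41% on day 2, 38.3 ± 7.15% on day 3 and 27.0 ± 5.85% on day 4. The 4 keratins made up 88.8 ± 1.84% on day 0, 68.2 ± 0.990% on day 1, 49.4 ± 5.27% on day 2, 60.2 ± 7.11% on day 3 and 71.8 ± 5.82% on day 4. The mean share of VIM was highest on day 2, when VIM lay above the keratins in replicate 1 (53.6% against 43.3%) and below them in the other 2 libraries. On each other day the keratins held the larger share in all 3 libraries. NES went from 5.91 ± 2.45% on day 0 to 1.20 ± 0.457% on day 4. In counts, the ratio of VIM to KRT18 was 0.191, 0.136 and 0.109 on day 0, 4.28, 3.32 and 3.49 on day 2, and 0.909, 2.48 and 1.94 on day 4. The mean log2 ratio was 3.53 higher on day 4 than on day 0 (exact two-sided permutation p = 0.1, the smallest possible).

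**Figure D4:**
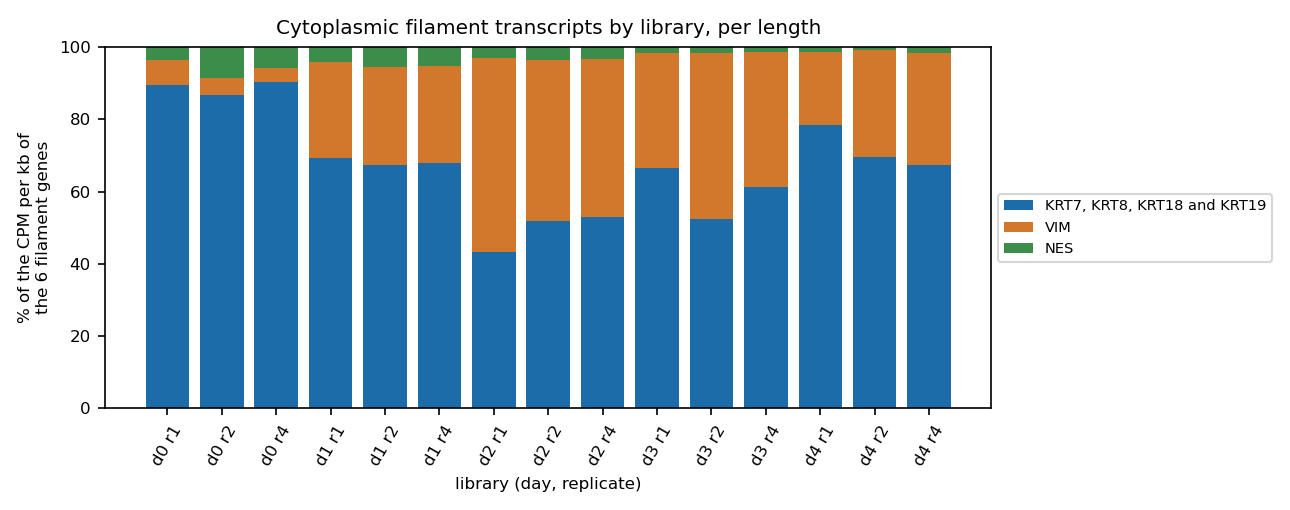
Stacked bars of the share of the 6 cytoplasmic filament genes' summed CPM per kb (vertical axis, 0 to 100%) held by the 4 keratins, VIM and NES in each of the 15 libraries (horizontal axis, d for day and r for replicate). The VIM share was 4.04 to 7.01% on day 0 and 43.9 to 53.6% on day 2.

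Within the keratins, the ratio of type II (KRT7 and KRT8) to type I (KRT18 and KRT19) CPM per kb was 0.513 ± 0.0140 on day 0, 0.934 ± 0.0515 on day 1, 0.744 ± 0.0926 on day 2, 0.649 ± 0.00787 on day 3 and 0.843 ± 0.167 on day 4. Type I transcripts were in excess by this measure in 14 of the 15 libraries, and in day 4 replicate 4 the ratio was 1.03. KRT19 made up 15.5 ± 1.05% of the type I sum on day 0 and 50.8 ± 2.47% on day 3, and on day 4 its share ran from 30.2% to 59.7% over the libraries. These values depend on the transcript lengths chosen, which were not those of the authors' annotation.

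In the fit of all libraries, edgeR called no lamin at an adjusted p under 0.05 in any comparison of days. An unadjusted p under 0.05 was reached by LMNB2 for day 1 against day 0, and by LMNB1 and LMNB2 for day 4 against day 1. LMNB1, a B-type lamin that stays farnesylated and membrane-bound, stood at 391, 475 and 360 CPM on day 0, at 619, 580 and 457 on day 1, and at 440, 434 and 505 on day 2. It stood at 311, 370 and 552 CPM on day 3 and at 292, 366 and 395 on day 4. The libraries of day 4 lay below those of day 1 but overlapped with day 0 (day 4 against day 0: log2 fold change -0.22, SE 0.26, edgeR adjusted p = 0.544).

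LMNB2, the other B-type lamin, stood at 135, 243 and 355 CPM on day 0, at 458, 531 and 369 on day 1, and at 275, 310 and 383 on day 2. It stood at 206, 224 and 275 CPM on day 3 and at 221, 266 and 355 on day 4. All day 1 libraries lay above all day 0 libraries, and the difference did not pass edgeR's test (log2 fold change 0.89, SE 0.32, edgeR adjusted p = 0.0990). Day 0 replicate 4 was the highest of its day, and without it the log2 fold change was 1.28 (adjusted p = 0.0218). The day 0 to day 4 log2 fold change was 0.20 (SE 0.32, edgeR adjusted p = 0.665), and 0.40 (adjusted p = 0.411) without replicate 1 of days 3 and 4. In the annotation LMNB2 overlaps TIMM13, a gene with up to 11906 counts in a library, so reads of the shared stretch are uncertain.

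LMNA, whose products lamin A and lamin C are typical of stiff and differentiated tissues, was the least abundant lamin in every library. It stood at 27.5, 29.8 and 53.3 CPM on day 0, at 32.5, 30.4 and 26.3 on day 1, and at 32.2, 34.4 and 53.4 on day 2. It stood at 22.8, 24.9 and 72.9 CPM on day 3 and at 18.8, 39.1 and 88.2 on day 4. Replicate 4 was the highest library on days 0, 2, 3 and 4 and the lowest on day 1. Within day 4 the highest library was 4.69-fold above the lowest, a spread wider than any difference between the means of days. LMNA was not called in any comparison (day 4 against day 0: log2 fold change 0.40, SE 0.52, edgeR adjusted p = 0.580). The log2 fold change was 0.85 (adjusted p = 0.170) without replicate 1 of days 3 and 4, and without day 4 replicate 4 the sign turned (log2 fold change -0.33, adjusted p = 0.680). The fibroblast markers, listed because such cells are rich in LMNA, summed highest in replicate 4 on days 0, 2, 3 and 4 as well, at 517, 228, 390 and 403 CPM. On day 0 the marker with the highest mean was THY1 (204 ± 133 CPM), and on days 2, 3 and 4 it was COL1A1. The part of such cells in the LMNA level was not tested.

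Per length, LMNA made up 5.59 ± 1.85% of the lamin sum on day 0, 3.14 ± 0.208% on day 1 and 7.18 ± 3.92% on day 4. LMNB1 made up 69.6 ± 10.9% on day 0 and 62.4 ± 4.74% on day 4. LMNB1 was thus the main lamin transcript throughout. The log2 ratio of LMNA to LMNB1 counts was -3.53 ± 0.67 on day 0 and -3.11 ± 0.90 on day 4, a difference of 0.41 (exact two-sided permutation p = 0.6) that turned to -0.064 without day 4 replicate 4.

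Beyond the 4 keratins named, few keratin genes reached 1 CPM. The table held 55 keratin genes, of which 12 had no count, 13 entered the test and 6 had a mean over 1 CPM. KRT8, KRT18 and KRT19 held between 92.2% and 99.5% of all keratin CPM in a library. KRT20, a type I keratin of gut epithelium, was found on day 1, at 5.77, 7.02 and 4.76 CPM, and at no more than 0.192 CPM in any library of the other days. It rose from day 0 to day 1 (log2 fold change 8.05, SE 1.03, edgeR adjusted p = 9.88e-05) and fell by 5.67 log2 units from day 1 to day 2 (SE 0.90, edgeR adjusted p = 9.88e-04), and both calls held under all 15 alternatives. KRT222, a keratin-like gene, was higher on day 4 (4.00 ± 1.75 CPM) than on day 0 (0.897 ± 0.205 CPM; log2 fold change 2.16, adjusted p = 0.00390). Of 6 further keratin genes listed (KRT20, KRT23, KRT80, KRT81, KRT86 and KRT222), 3 were tested and 2 of these changed by the joint test, KRT20 and KRT222. That test called 37.3% of all genes.

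Of 16 keratins of stratified epithelia, 4 were tested and 1 changed by the joint test (37.3% of all genes), KRT10. KRT10, a keratin of differentiating epidermis, stood at 101, 32.6 and 14.5 CPM in the day 0 libraries and at 16.7, 11.9 and 12.6 on day 4. Its log2 fold change from day 0 to day 4 was -1.84 (edgeR adjusted p = 0.0155) with all libraries and -0.74 (adjusted p = 0.203) without day 0 replicate 1. KRT4, KRT6A, KRT6B and KRT6C were listed at 0 on each of the 5 days.

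Among 11 other type III, type IV and lens filament genes, 10 were tested and 6 changed by the joint test, which called 37.3% of all genes. From day 0 to day 4, 3 were higher (SYNM, SYNC, BFSP1) and 3 lower (INA, NEFL, NEFM), with a median log2 fold change of -0.42 against -0.024 over all genes. Over all genes, 18.0% were higher and 16.2% lower. The calls of SYNM and BFSP1 were lost under 4 and 6 of 15 alternatives, for BFSP1 among them the fit without replicate 1 of days 3 and 4 (adjusted p = 0.139). SYNC had no count on day 0 and at most 16 counts in any library (0.113 ± 0.0310 CPM on day 4). It did not pass the joint test (edgeR adjusted p = 0.0595). The median is the same with SYNC at the value that 3 counts per library allow. NEFL, the light neurofilament chain, rose from 16.9 ± 1.39 CPM on day 0 to 49.2 ± 5.87 on day 1 (log2 fold change 1.54, SE 0.41, edgeR adjusted p = 0.0238). That call was lost without 5 of the 6 libraries in turn (adjusted p up to 0.0948). NEFL then fell by 2.58 log2 units to day 2 (SE 0.42, edgeR adjusted p = 0.00140) and stood at 3.63 ± 1.37 CPM on day 4. NEFM, the medium chain, fell by 3.85 log2 units from day 0 to day 4 (SE 0.74, edgeR adjusted p = 0.00108), from 17.0 ± 10.1 to 1.20 ± 0.934 CPM. INA, alpha-internexin, fell by 1.84 (SE 0.45, edgeR adjusted p = 0.00594), from 25.1 ± 3.29 to 7.01 ± 3.52 CPM.

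The plakins and desmosomal proteins that anchor intermediate filaments formed a list of 16, all tested, of which 4 changed by the joint test, a smaller share than the 37.3% of all genes. From day 0 to day 4, 3 were higher (PLEC, DSP, PKP2) and 1 lower (DSC3), against 18.0% higher and 16.2% lower over all genes, with a median log2 fold change of 0.16. DSP, desmoplakin, which ties keratin filaments to desmosomes, stood at 49.9, 145 and 129 CPM on day 0 and at 479, 567 and 439 on day 1. It rose in that step (log2 fold change 2.20, SE 0.32, edgeR adjusted p = 3.38e-04) and was still higher on day 4 than on day 0 (log2 fold change 1.56, SE 0.32, edgeR adjusted p = 0.00173). PKP2, plakophilin 2, a desmosomal plaque protein, stood at 26.5, 28.6 and 15.3 CPM on day 2 and at 106, 74.0 and 78.6 on day 3 (log2 fold change 1.88, SE 0.31, edgeR adjusted p = 0.0122). That call was lost without 3 of the 6 libraries in turn and in a fit of the 2 days alone (adjusted p = 0.153). DSC3, a desmocollin, fell from 5.62 ± 2.00 CPM (day 0) to 1.39 ± 0.760 CPM (day 4; log2 fold change -2.02, edgeR adjusted p = 0.00938).

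**Figure D5:**
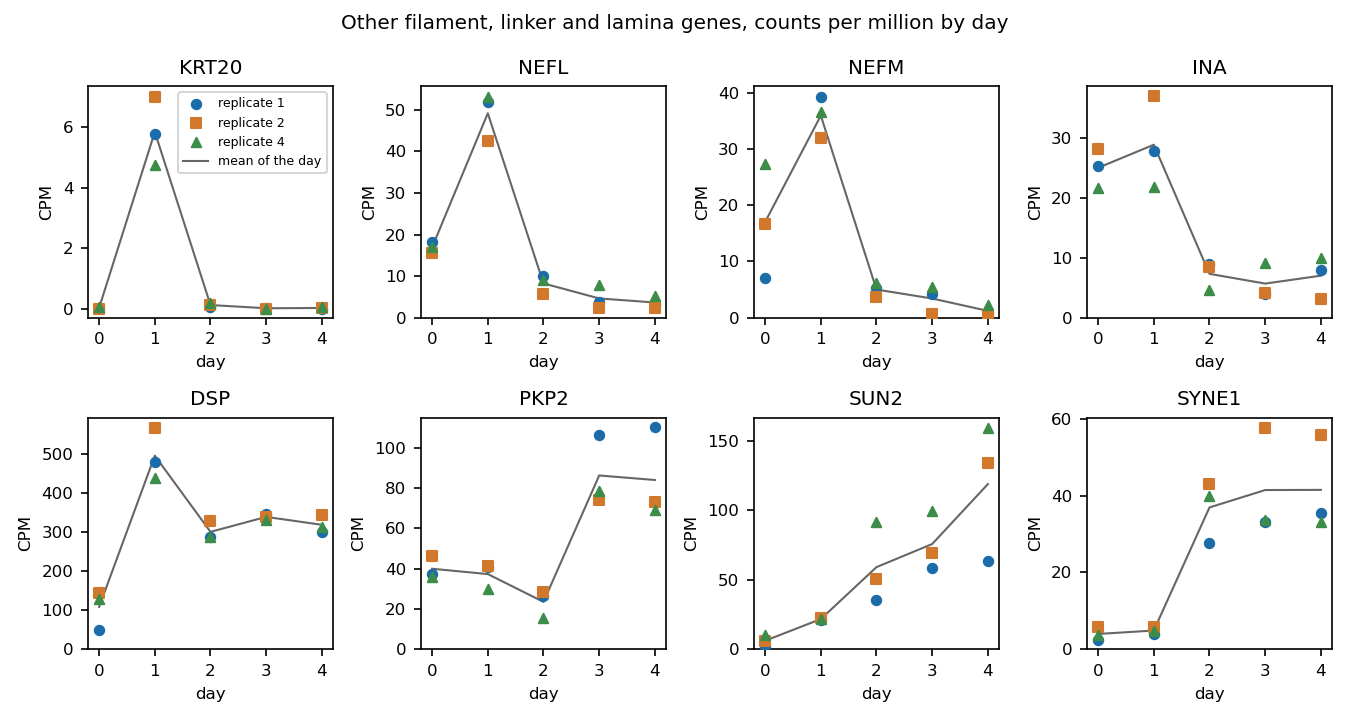
Level in CPM (vertical axes, linear, own range in each panel) against day (horizontal axes) for KRT20, the neuronal filament genes NEFL, NEFM and INA, the desmosomal genes DSP and PKP2, and the nuclear envelope genes SUN2 and SYNE1; each point is a library and the line joins the means of the days. KRT20 was between 4.76 and 7.02 CPM on day 1 and at most 0.192 CPM on other days, and SUN2 was between 2.04 and 10.4 CPM on day 0 and between 63.5 and 159 on day 4.

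Of 16 partners of the lamina in the inner nuclear membrane and in the LINC complex, which links the lamina to the cytoskeleton, 14 were in the table and tested. By the joint test 2 changed, SUN2 and SYNE1, against 37.3% of all genes. SUN2, an inner membrane protein of the LINC complex, stood at 2.04, 5.58 and 10.4 CPM on day 0 and at 63.5, 134 and 159 on day 4 (log2 fold change 4.30, SE 0.56, edgeR adjusted p = 4.91e-05). SYNE1, which encodes nesprin-1, a LINC protein of the outer nuclear membrane, stood at 4.02, 5.82 and 4.69 CPM on day 1 and at 27.7, 43.1 and 40.0 on day 2. It rose in that step (log2 fold change 2.93, SE 0.39, edgeR adjusted p = 2.94e-04) and remained high on day 4 (41.5 ± 12.5 CPM). From day 0 to day 4 the list counted 2 higher and 1 lower, against 18.0% and 16.2% of all genes. The 1 lower was NUP153, a nuclear pore protein whose call was lost under 4 of 15 alternatives. The median log2 fold change of the list was -0.20. The lamin genes themselves were not called in those same comparisons.

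The 5 listed genes for enzymes or enzyme subunits that process prelamins, by farnesylation, cleavage and methylation of the coding ends printed above, were all tested. Of these, 2 were lower on day 4 than on day 0 and 0 higher (16.2% and 18.0% of all genes), with a median log2 fold change of -1.12 against -0.024 over all genes. ICMT, which methylates the farnesylated cysteine, fell by 1.26 log2 units (SE 0.26, edgeR adjusted p = 0.00186), from 272 ± 62.3 to 114 ± 17.0 CPM. FNTB, the beta subunit of the farnesyltransferase, fell by 1.74 (SE 0.52, edgeR adjusted p = 0.0174), from 1.92 ± 0.523 to 0.571 ± 0.171 CPM, a call lost under 4 of 15 alternatives (adjusted p up to 0.0710). ZMPSTE24, the protease that matures lamin A, had a log2 fold change of -1.12 and was not called (adjusted p = 0.0977).

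For each of the 9 genes, the genes whose levels were most like its own were sought among 10913 genes averaging 5 CPM or more, by Pearson's r of log2(CPM + 1) over the 15 libraries. These correlations are descriptions: the libraries share days, so any genes with similar day courses score high. VIM was most like TGFB1 and GATA4 (r = 0.98 for each), KRT19 most like PHF1 and FAM113A (0.97 each), and KRT7 most like ZDHHC22 (0.97) and SPIB (0.96). KRT8 was most like P2RX4 and SLC2A14 (0.91 each). LMNB2 had an r of 0.94 with NOC2L, and NES was most like NUP93 (0.92) and GPRIN1 (0.88). LMNA was most like FAM19A5 (0.90) and AK1 (0.86), LMNB1 most like SFN and KIAA0020 (0.85 each), and KRT18 most like CYB561D2 and CTNND2 (0.79 each). Among the 9 genes themselves, the strongest relation was between VIM and KRT7 (r = -0.92), followed by KRT8 with KRT19 (0.75), KRT8 with KRT18 (0.73) and NES with LMNB2 (0.73). KRT7 averaged 0.863 CPM, below the 5 CPM asked of the genes searched, and lay at or below 0.243 CPM after day 0. Its r values therefore mostly reflect day 0 against the later days. VIM and KRT18 had an r of 0.014.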

How the data were processed

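PolyA RNA of 15 H9 libraries was measured. The authors deposited whole-number counts per gene symbol and library, not normalized. The tool and build named are TopHat2 2.0.14 and hg19, per the submitters' processing notes. Libraries were directional, per the labels' protocols. Which program counted the reads, with which annotation and strand setting, is not given in the sources used here. Every deposited count was even. Of 52 repeated symbols, 44 with identical values were dropped and 8 summed.

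Columns were matched to days by the titles in the labels. The main test was edgeR 4.0.16 (limma 3.58.1, R 4.3.3), a quasi-likelihood F-test with TMM scaling, filterByExpr by day and a mean per day, in 1 fit of all libraries. Benjamini-Hochberg adjustment ran over the 17401 genes kept, and adjusted p under 0.05 was called. All 9 genes passed the filter. KRT7 cleared it in its day 0 libraries, the group where it was high, and also in its day 1 libraries, with 10 to 16 counts. KRT20 passed it only through its day 1 libraries, the group where it was high. SE was taken as the size of the log2 fold change over the root of F. CPM were computed with library sizes after TMM. Python 3.11.15 and pandas 2.3.3 made the tables. Sequences and transcript lengths came from GENCODE v29 on GRCh38, another build than the authors'.

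Tested on simulated data for day 1 against day 0 (17401 genes), edgeR recovered 8% of changes of 2-fold and 60% of changes of 4-fold, with 5 unchanged genes called. DESeq2 recovered 16% and 81%, with 41. The simulation changed far fewer genes than the 1806 called here for that comparison. The adjustment is stricter when fewer genes change, so the shares recovered may be too low for these data. Same-numbered libraries of different days had correlated deviations from their day means in 21 of 30 pairs (r over 0.1; range -0.18 to 0.58; median 0.21, against -0.13 for libraries with other numbers). The labels give the numbers no meaning, and they were taken to pair libraries only where all 3 pairs of a comparison passed 0.1, which held for day 3 against day 2 and day 4 against day 3. For the other comparisons whether they pair is unsettled, and calls with the block stand in the closing section.

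The 9 genes and the gene lists were chosen with earlier results of these data known. Named besides the 9 were up to 3 genes per list with the smallest joint p, and the 2 genes of highest r, of which 1 is not reported here. SYNM, SYNC, BFSP1, PLEC, NUP153, ZMPSTE24, ISL1, TFAP2C, VTCN1, COL1A1, COL3A1, DCN, CER1, HHEX, GATA6 and CXCR4 were named after their values were seen. Alternatives were DESeq2 size factors, library totals alone, no filter, CPM over 1 in 3 libraries, DESeq2 1.42.0, a replicate block, the 2 days fitted alone, a fit without replicate 1 of days 3 and 4, and each library left out in turn. Halved counts, and the alternatives for genes other than the 9, were added after the data were seen. Marker lists covered undifferentiated, streak, endoderm, trophoblast and amnion, neural and fibroblast cells, and the 6 streak markers summed to 4.67 to 6.55 CPM on day 0 and 1881 to 2014 on day 1.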

Additional observations from a re-analysis of the deposited data

How the results depend on the processing

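Of the 14 calls made for the 9 genes (comparisons and joint test), 10 held under every alternative run, and 4 were lost under some: KRT7 for day 1 against day 0, VIM and KRT8 for day 4 against day 1, and KRT18 in the joint test. The cause was not tested. The count of genes higher on day 1 than on day 0 was 1, and ranged from 1 to 3 over the libraries left out. The 3 came without day 0 replicate 4, where 1484 of all genes were higher, against 956 in the main fit. The count lower was 1, and 0 with each library left out, with DESeq2 (0) and with library totals alone (0). For day 2 against day 1, the count higher was 0, and 1 (VIM) with DESeq2, in a fit of only these days and without replicate 1 of days 3 and 4. Of all genes, these fits called 1405, 1506 and 1065 higher, against 857 in the main fit. For day 3 against day 2 the count of the 9 higher was 0, and 1 (KRT19) with DESeq2, which called 619 of all genes higher against 115. For day 4 against day 1 the count higher was 3, and ranged from 1 to 3 over the libraries left out, and the count lower was 0, and ranged from 0 to 2. The 2 came without day 4 replicate 4, where 1058 of all genes were lower, against 1554 in the main fit. Of 85 calls of other named genes, 55 held under every alternative run. The calls of PAX6, LHX2, DCX and TFAP2C are not among the 85.

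Sign changes touched only uncalled differences, and the cause was not tested. Over the libraries left out, the log2 ratio of LMNA to LMNB1 ranged from -0.064 (without day 4 replicate 4) to 0.83. For day 1 against day 0, the log2 fold change of KRT18 ranged from -0.33 to 0.15 and that of LMNA from -0.49 to 0.073, each highest without day 0 replicate 4. For day 3 against day 2, KRT7 ranged from -2.73 (without day 3 replicate 4) to 1.13, LMNA from -0.74 (without day 3 replicate 4) to 0.32 and LMNB1 from -0.42 to 0.0069. In the same step KRT7 was -0.28 and LMNA -0.15 with the replicate block, LMNA was -0.021 with library totals alone, and LMNB1 was 0.0043 without replicate 1 of days 3 and 4. For day 4 against day 3, VIM ranged from -0.39 to 0.20, KRT7 from -6.01 to 2.36, KRT19 from -0.20 to 0.36, NES from -0.42 to 0.41, LMNA from -0.49 to 1.06 and LMNB1 from -0.39 to 0.057, and VIM was 0.041 without replicate 1 of days 3 and 4. For day 4 against day 0, LMNA ranged from -0.33 (without day 4 replicate 4) to 0.86 and LMNB2 from -0.065 (without day 0 replicate 1) to 0.63. For day 4 against day 1, LMNA ranged from -0.021 (without day 4 replicate 4) to 1.17.

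With the replicate number as a block, the counts higher were 3 for day 1 against day 0 (VIM, KRT8, LMNB2) and 1 for day 2 against day 1 (VIM), and the count lower for day 4 against day 1 was 1 (NES). The adjusted p was 0.0250 for KRT8, 0.0220 for LMNB2, 0.0492 for VIM and 0.0223 for NES. The joint count was 7 in place of 5, with NES (0.0369) and LMNB2 (0.0241) added. The block changed the counts of no other comparison, those of day 3 against day 2 and day 4 against day 3 included, where the numbers were taken to pair libraries. These calls of NES, LMNB2, KRT8 and VIM thus depend on whether the numbers pair libraries, which the labels do not say. With 3 libraries per day, changes of about 2-fold were mostly missed in the simulated data, where fewer genes were changed than were called here. Genes not called, the lamins and NES among them, are not shown to be stable. KRT7 after day 0 rests on at most 20 counts per library.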
